A study of Mus musculus with 6 samples.

Results

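The genes that encode methyl-CpG binding proteins were followed in RNA from mouse lung endothelial cells, which form the inner lining of vessels. They were chosen by name: Mbd1, Mbd2, Mbd3, Mbd4, Mbd5, Mbd6, Zbtb4, Zbtb33 and Zbtb38, 9 of the 24520 genes in the deposited tables. All 9 were measured and all 9 passed the filter on low counts. The cells had been sorted by flow cytometry from mice labelled wild type (WT) or knockout (KO) for Dnmt3a, which encodes an enzyme that sets new DNA methylation, with 3 libraries per label. The allele, any Cre driver, the age of the mice, the gate of the sort and whether the 3 libraries of a label are from separate animals are not stated in the labels, so p-values measure the spread between these libraries, part of which may be technical.

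Cytosine methylation at CpG dinucleotides is read by proteins that bind the modified site and bring repressive complexes to it. One family shares the methyl-CpG binding domain (MBD): Mbd1 recruits histone H3 lysine 9 methylation, Mbd2 and Mbd3 are alternative subunits of the nucleosome remodelling and deacetylase complex NuRD, Mbd4 is a DNA glycosylase that repairs the mismatch left when methylcytosine deaminates, and Mbd5 and Mbd6 bind a histone H2A deubiquitinase complex called PR-DUB. The mammalian Mbd3, Mbd5 and Mbd6 proteins carry the domain but do not bind methylated CpG selectively. The other family binds through zinc fingers: Zbtb33, also called Kaiso, and its relatives Zbtb4 and Zbtb38.

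Over all genes, the counts per library summed to 28136194 to 39999172. Dnmt3a itself ran against the labels, at 31.8 to 37.6 CPM (read counts scaled to a common library total) under the WT label and 161 to 172 CPM under the KO label, so every direction below is that of a label. Deletion of part of a gene can leave its summed count high, and exons were not analysed here. Endothelial markers (8 of 8 measured) summed to 10074 to 11848 CPM under the WT label and 9865 to 11239 CPM under the KO label. Markers of other cells were also present: alveolar epithelial markers summed to 9257 CPM in WT replicate 1 and 230 CPM in WT replicate 2, and leukocyte markers to 2160 CPM in WT replicate 3 against 53.3 to 678 CPM in the other 5 libraries. Cd74, a gene of antigen presentation, gave 1979 CPM of that highest sum, while Ptprc, the pan-leukocyte marker, was at 1.22 CPM there and at 0.710 to 2.71 CPM over all 6 libraries. In bulk RNA, fewer cells of a type and less RNA per cell cannot be told apart.

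The stretches where transcription of these genes starts are shown because CpG dinucleotides, the sites whose methylation most of the encoded proteins read, also stand at their own starts. RefSeq windows on GRCm38.p6 (the assembly behind mm10) ran from 250 bases before to 30 bases after an annotated start. They were used for 7 of the 9 genes, and those of Mbd1 and Mbd2 were left out. Each printed window is written 5′ to 3′ in the gene's direction. For 4 genes, whose libraries labelled KO all lay above those labelled WT (below), the CpGs are in capitals. The windows are chr10:127288989-127289268 (minus strand) for the upstream start of Mbd6, chr11:69765662-69765941 (plus) for Zbtb4, chrX:38189543-38189822 (plus) for Zbtb33 and chr9:96731646-96731925 (minus) for the most upstream of 3 windows of Zbtb38.
Mbd6: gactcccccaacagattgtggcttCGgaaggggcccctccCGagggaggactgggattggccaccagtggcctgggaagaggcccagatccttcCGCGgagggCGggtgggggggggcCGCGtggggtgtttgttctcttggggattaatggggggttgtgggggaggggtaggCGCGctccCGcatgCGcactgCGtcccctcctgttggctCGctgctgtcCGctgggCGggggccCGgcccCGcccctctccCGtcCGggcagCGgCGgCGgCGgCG
Zbtb4: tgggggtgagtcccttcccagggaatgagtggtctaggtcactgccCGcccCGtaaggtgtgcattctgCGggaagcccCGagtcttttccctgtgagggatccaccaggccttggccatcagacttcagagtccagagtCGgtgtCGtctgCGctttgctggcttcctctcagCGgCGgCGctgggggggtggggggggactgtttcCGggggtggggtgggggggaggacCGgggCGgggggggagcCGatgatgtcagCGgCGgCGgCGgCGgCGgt
Zbtb33: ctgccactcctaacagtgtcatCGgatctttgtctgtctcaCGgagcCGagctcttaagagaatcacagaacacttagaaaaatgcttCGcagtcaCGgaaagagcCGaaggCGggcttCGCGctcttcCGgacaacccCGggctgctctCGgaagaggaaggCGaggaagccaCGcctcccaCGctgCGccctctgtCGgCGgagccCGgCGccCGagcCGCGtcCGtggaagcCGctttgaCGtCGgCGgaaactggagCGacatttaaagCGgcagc
Zbtb38: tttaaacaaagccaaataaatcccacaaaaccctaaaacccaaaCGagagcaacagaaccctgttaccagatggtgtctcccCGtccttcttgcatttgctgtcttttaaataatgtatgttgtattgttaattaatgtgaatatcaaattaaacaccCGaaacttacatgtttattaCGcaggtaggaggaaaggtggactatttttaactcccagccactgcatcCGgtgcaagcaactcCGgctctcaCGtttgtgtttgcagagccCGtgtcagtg

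The Zbtb33 window held 30 CpGs, the Mbd6 window 24 and the Zbtb4 window 20, against a median of 6 over 32841 promoter windows of the same length. As many CpGs or more stood in 9.25%, 16.9% and 23.4% of all windows, respectively. The other window of Mbd6, not printed here, had 38, and 3.56% of all windows had as many or more. The Zbtb38 window printed here held 8, whereas the other windows of Zbtb38 had 35 and 23. Mbd4 had 23, Mbd3 had 19, and the windows of Mbd5 had 17 and 4. DNA methylation itself was not measured in these files.

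Besides methylated CpGs, Zbtb33 binds the unmethylated sequence TCCTGCNA. Both strands of the windows were searched for it, and of the windows of the 7 genes only that of Mbd3 held it, with 4.6% of all windows doing so. That share is per window, and Mbd5, Mbd6 and Zbtb38 had several windows each. In the Mbd3 window (chr10:80399502-80399781, minus strand) the match began at position 251, the RefSeq start of the transcript. It is in capitals here.
Mbd3: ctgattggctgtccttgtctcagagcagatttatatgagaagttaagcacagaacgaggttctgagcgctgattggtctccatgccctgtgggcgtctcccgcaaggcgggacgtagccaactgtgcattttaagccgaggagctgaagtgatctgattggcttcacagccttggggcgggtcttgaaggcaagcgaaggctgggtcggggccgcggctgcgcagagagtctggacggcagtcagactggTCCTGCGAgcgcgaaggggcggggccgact
A match describes the letters of the window and is not a measured site.

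Levels were compared between genes as TPM, which scales the counts by transcript length. The order of the mean TPM was Mbd2 (41.7), Mbd1 (41.6), Zbtb4 (29.1), Mbd3 (21.2), Mbd4 (12.2), Mbd6 (10.0), Zbtb38 (7.32), Zbtb33 (2.63) and Mbd5 (0.483). Mbd2 and Mbd1 thus stood at the 77th percentile of the tested genes (77.1 and 77.0), and Mbd5 at 8.20. The ranges of neighbours in this order overlapped over the 6 libraries, except that Mbd1 lay above Zbtb4, Zbtb38 above Zbtb33 and Zbtb33 above Mbd5. Mbd2 and Mbd1 exchanged places between libraries: Mbd2 was above Mbd1 in 4 of 6, among them all 3 labelled KO.

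**Figure D1:**
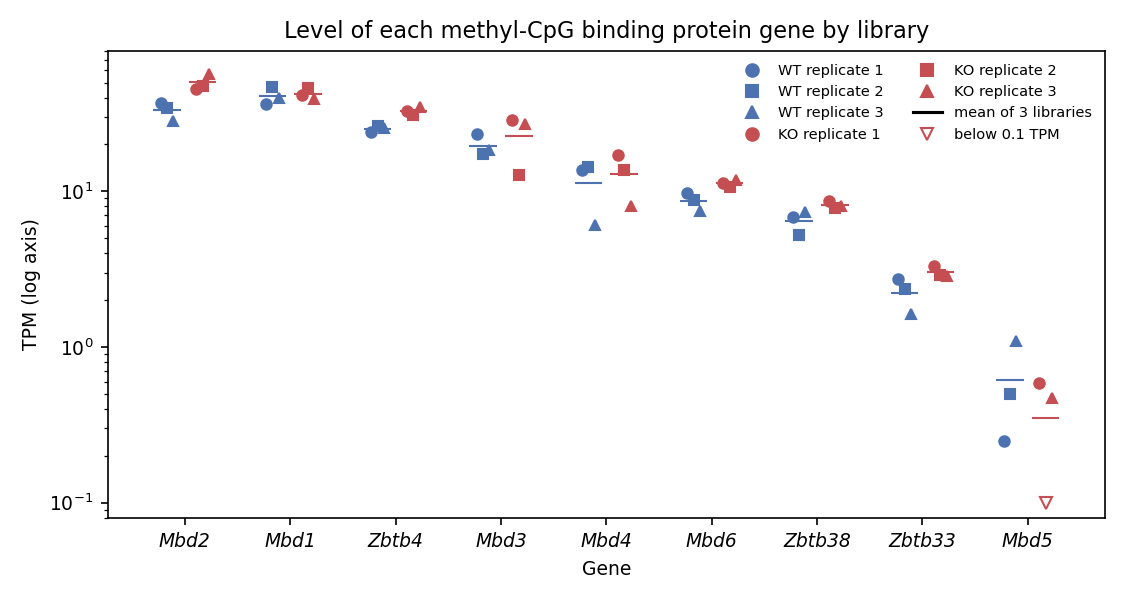
TPM (log axis) of the 9 genes in each library, ordered by their mean; blue is WT, red is KO, symbols mark the replicate and bars the mean of 3 libraries. Mbd2 and Mbd1 share the top at means of 41.7 and 41.6 TPM, and Mbd5 in KO replicate 2 falls below the axis and is drawn as an open triangle at 0.1.

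The comparison of the labels asks whether the readers of CpG methylation differ in endothelial RNA when the label of a methyltransferase gene differs. By edgeR's quasi-likelihood test with Benjamini-Hochberg adjustment over 14667 genes, 0 of the 9 genes passed an adjusted p of 0.05, where 0.0341% of all tested genes did. DESeq2 also called 0 of the 9, against 2.65% of all genes. At an unadjusted p under 0.05 there were 2 of 9, Mbd2 and Zbtb4, beside 12.6% of all genes. Log2 fold changes were positive for 8 of 9 genes, beside 50.9% of all genes, with a median of 0.21 against 0.0086 over all genes. The positive genes numbered 6 to 8 over the alternatives, 6 of them without KO replicate 1. The 3 libraries labelled KO lay above all 3 labelled WT for 5 of the 9 genes, namely Mbd2, Mbd6, Zbtb4, Zbtb33 and Zbtb38, beside 10.9% of all genes, and below them for none, beside 9.42%. These shares describe the 9 genes and were not tested. With library size as the only scaling, Zbtb33 overlapped and the count was 4, beside 10.8% of all genes. It was 5 by TMM, RLE and upper-quartile scaling and by TPM, beside 10.9%, 10.4%, 10.1% and 13.8% of all genes, respectively.

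Mbd1 (ENSMUSG00000024561, mm10 chromosome 18, 74267605 to 74282732, plus strand) encodes the member that also has zinc fingers of the CXXC type. Values of the 3 libraries of a label are given here and below in the order of replicates 1, 2 and 3. The level of Mbd1 was 56.6, 72.4 and 68.0 CPM under the WT label and 64.1, 71.1 and 62.8 CPM under the KO label. The groups overlapped and their means were nearly equal, at 65.6 ± 8.16 and 66.0 ± 4.47 CPM (SD, n = 3 each). The fold change had a 95% interval of 0.820 to 1.23, so a change of 1.5-fold in either direction lay outside it (edgeR adjusted p = 0.985).

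Mbd2 (ENSMUSG00000024513, chromosome 18, 70568189 to 70626131, plus strand) had the smallest p of the 9 genes. It was at 36.8, 33.9 and 30.6 CPM under the WT label and 42.7, 45.9 and 56.0 CPM under the KO label. The lowest library labelled KO lay above the highest labelled WT. The means were 33.7 ± 3.09 and 48.2 ± 6.95 CPM (SD, n = 3 each), and the log2 fold change was 0.51 (SE 0.15, 95% interval 0.17 to 0.85). Unadjusted p was 0.00859, rank 419 of the tested genes, and the edgeR adjusted p was 0.293 (0.0983 to 0.664 over the alternatives). The difference was smallest without KO replicate 3, at a log2 fold change of 0.39, and reached 0.59 without KO replicate 1.

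Mbd3 (ENSMUSG00000035478, chromosome 10, 80392539 to 80399550, minus strand), the alternative to Mbd2 in NuRD, overlapped between the labels. It was at 19.1, 14.1 and 16.4 CPM under the WT label and 22.1, 10.3 and 22.2 CPM under the KO label. KO replicate 2 was the lowest of all 6 libraries, and the other 2 labelled KO were the highest. The log2 fold change was 0.14 (SE 0.30, edgeR adjusted p = 0.872) and became 0.42 without KO replicate 2, but -0.03 without KO replicate 1 or 3. Of the summed TPM of Mbd2 and Mbd3, Mbd2 made up 61.4%, 66.6% and 60.6% under the WT label and 61.6%, 78.9% and 67.7% under the KO label. The share thus overlapped between the labels, with KO replicate 2 highest.

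Mbd4 (ENSMUSG00000030322, chromosome 6, 115840697 to 115853371, minus strand) had a wide range within each label. It was at 24.9, 27.3 and 14.2 CPM under the WT label and 31.0, 24.4 and 16.6 CPM under the KO label. Replicate 3 was the lowest library under each label, and the groups overlapped (log2 fold change 0.12, SE 0.31, edgeR adjusted p = 0.892). TPM per count, which changes when transcripts of other lengths contribute, was also lowest in those libraries: relative to the median gene of its library it was 0.762 in WT replicate 3 and 0.787 in KO replicate 3, and 0.847 to 0.918 in the other 4. The highest of these 6 values was 1.20 times the lowest, a spread larger than that of 94.2% of 13106 genes with at least 10 counts in every library.

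Mbd5 (ENSMUSG00000036792, chromosome 2, 48949508 to 49325405, plus strand) was the scarcest and least regular. It had 28, 61 and 163 counts under the WT label and 71, 1 and 59 under the KO label. The single count of KO replicate 2 lay under the floor of 3 counts, while the highest library, WT replicate 3, carried 4.32 CPM. The log2 fold change of -0.71 had a 95% interval of -3.29 to 1.87, so neither direction could be told at this depth (edgeR adjusted p = 0.811). Without WT replicate 3 it was 0.02. The deposited TPM of KO replicate 2 was 1.61e-07, whereas 1 count of Mbd5 was worth 0.00674 to 0.00886 TPM in the other 5 libraries, so its counts and TPM do not match there. Part of Mbd5 (770 bases) overlaps Orc4 on the opposite strand, which had 1449 to 2362 counts, and the sources used here do not say that strand was kept.

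Mbd6 (ENSMUSG00000025409, chromosome 10, 127281956 to 127289018, minus strand), the close relative of Mbd5, was steadier and far more abundant. It was at 24.4, 22.6 and 20.1 CPM under the WT label and 26.3, 26.4 and 29.2 CPM under the KO label, without overlap. The means were 22.4 ± 2.13 and 27.3 ± 1.61 CPM (SD, n = 3 each), and the log2 fold change was 0.29 (SE 0.14, 95% interval -0.03 to 0.61, edgeR adjusted p = 0.423). Mbd5 made up 12.7% of the summed TPM of Mbd5 and Mbd6 in WT replicate 3, 2.47% to 5.30% in 4 libraries, and almost nothing in KO replicate 2.

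Zbtb4 (ENSMUSG00000018750, chromosome 11, 69765912 to 69784023, plus strand) was the most abundant of the 3 Zbtb genes by TPM. It was at 106, 119 and 122 CPM under the WT label and 132, 137 and 159 CPM under the KO label. The groups did not overlap, with means of 115 ± 8.54 and 143 ± 14.4 CPM (SD, n = 3 each). The log2 fold change was 0.31 (SE 0.12, 95% interval 0.03 to 0.59), with an unadjusted p of 0.0336 and an edgeR adjusted p of 0.359 (0.269 to 0.675 over the alternatives). In TPM the means were 25.3 ± 1.10 and 32.9 ± 2.02 (SD, n = 3 each).

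Zbtb33 (ENSMUSG00000048047, chromosome X, 38189793 to 38197046, plus strand) was at 8.22, 7.11 and 5.33 CPM under the WT label and 9.40, 8.62 and 8.50 CPM under the KO label. The groups lay next to each other, 8.22 against 8.50 CPM at their nearest (log2 fold change 0.36, SE 0.23, edgeR adjusted p = 0.534). Replicate 1 was the highest library under each label. Zbtb33 is X-linked, and Xist, the RNA of the inactive X chromosome, was at 545 CPM in WT replicate 1 and 714 CPM in KO replicate 1 and at most 1.98 CPM in the other 4 libraries. The part of X-chromosome dosage in the level of Zbtb33 was not tested. A stretch of 474 bases overlaps Tmem255a on the opposite strand, which had 272 to 506 counts against 201 to 278 of Zbtb33.

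Zbtb38 (ENSMUSG00000040433, chromosome 9, 96682770 to 96752831, minus strand) was at 20.4, 16.4 and 21.5 CPM under the WT label and 23.1, 22.5 and 21.8 CPM under the KO label. The libraries labelled KO spanned a narrow range just above the highest labelled WT (log2 fold change 0.21, SE 0.15, edgeR adjusted p = 0.591). The 95% interval of the fold in this fit, 0.901 to 1.48, left out a change of 1.5-fold in either direction. Its upper end lay close to 1.5, unlike that of Mbd1. Over the alternatives the log2 fold change ran from 0.10 to 0.35, and no intervals are given for those. Together the 3 zinc finger genes summed to 33.6, 33.8 and 34.5 TPM under the WT label and to 44.7, 41.7 and 46.0 TPM under the KO label. Each of the 3 separated in TPM by itself and Zbtb4 was the largest part, so the sum is not a separate result. The 6 Mbd genes summed to 120, 122 and 101 TPM under the WT label and 145, 131 and 144 TPM under the KO label. The median log2 fold change of all genes was 0.06 on log2(TPM + 1), against 0.0086 by edgeR. Antisense RNAs annotated over Mbd4, Mbd6 and Zbtb38 were not analysed here.

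**Figure D2:**
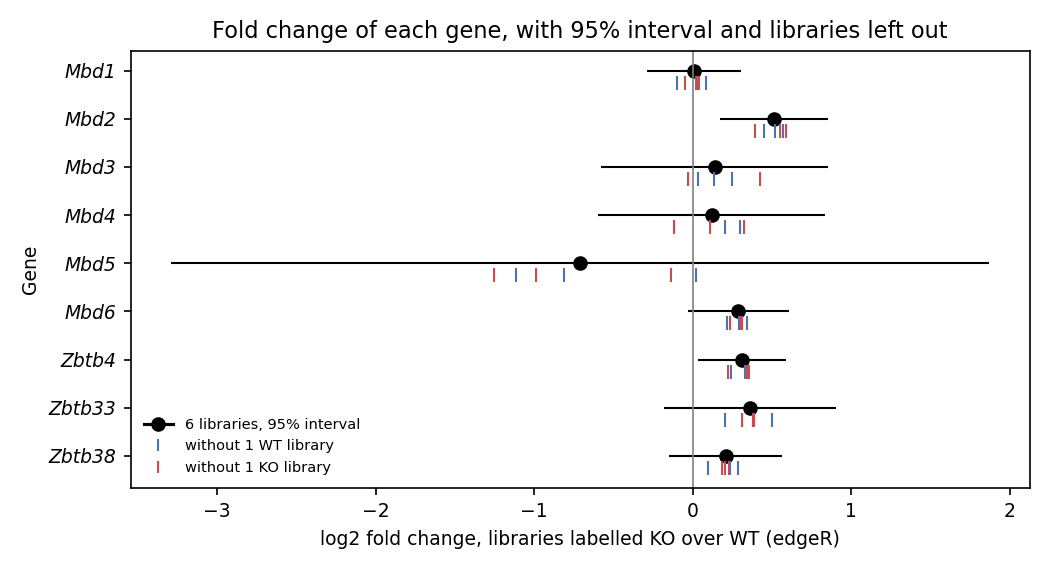
Log2 fold change of each gene, KO over WT, from the edgeR fit of 6 libraries (black points, bars are 95% intervals); ticks below each bar are fits without 1 library, blue for WT and red for KO. The intervals of Mbd2 and Zbtb4 lie above 0, that of Mbd5 runs from -3.29 to 1.87, and ticks fall on both sides of 0 for Mbd1, Mbd3, Mbd4 and Mbd5.

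Among the markers of other cells, those of fibroblasts differed in sum without overlap: 8 of 8 had a positive log2 fold change, 1 of them past the threshold, and their sum was 142 to 199 CPM under the WT label and 300 to 440 CPM under the KO label. Of these 8, only Inmt was at 0 in a library, and Pdgfra and Lum overlapped between the labels. The gene past the threshold was Col3a1, which with Col1a1 and Col1a2 made up most of the sum in each library. Sums of alveolar, airway, pericyte and smooth muscle, leukocyte, and erythroid and platelet markers overlapped between the labels. The part of fibroblast RNA in the levels of the 9 genes was not tested.

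The partners of these proteins were read from the same fit, in 7 lists of genes, with Setdb1 in 2 of them and counted once. None of 60 tested partner genes passed by edgeR, and 8 had an unadjusted p under 0.05, a share near the 12.6% of all genes. Of the 60, 29 had positive and 31 negative log2 fold changes, and the median was -0.02. Over all genes 50.9% were positive and the median was 0.0086, for comparison with each list below. DESeq2 called 2 of the 60, Gatad2a and Rbbp4, a share near its 2.65% of all genes.

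NuRD, the complex of Mbd2 and Mbd3, was the list with the most genes at an unadjusted p under 0.05. Of its 13 subunit genes 12 were tested; 6 had positive and 6 negative log2 fold changes, 2 lay wholly above the libraries labelled WT (10.9% of all genes did) and 4 wholly below (9.42%), and 5 had such a p (12.6%). The median of -0.02 changed sign with library size as the only scaling (0.0035), on TPM (0.02 with a pseudocount of 1) and without WT replicate 2 (0.0054). Without a filter it was 0.07, but that fit also included the subunit gene left untested above. It was -0.17 without KO replicate 2 and -0.17 by limma-voom. Gatad2a encodes the scaffold subunit that binds Mbd2 directly. It was at 144, 144 and 125 CPM under the WT label and 180, 177 and 206 CPM under the KO label. The log2 fold change was 0.45 (SE 0.12, edgeR adjusted p = 0.286, DESeq2 adjusted p = 0.04, range over the alternatives 0.04 to 0.657).

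The histone-binding subunits lay on the other side. Rbbp4 was at 85.4, 90.1 and 84.7 CPM under the WT label and 44.4, 69.1 and 56.9 CPM under the KO label, with log2 fold change -0.61 (SE 0.16, edgeR adjusted p = 0.292, DESeq2 adjusted p = 0.0401, range over the alternatives 0.0401 to 0.647). Rbbp7 was at 137, 148 and 132 CPM under the WT label and 112, 106 and 108 CPM under the KO label, with log2 fold change -0.35 (SE 0.10, edgeR adjusted p = 0.293). In both genes every library labelled KO was below every library labelled WT. Hdac1, the deacetylase and the most abundant NuRD gene by TPM, had 223 ± 22.2 and 193 ± 3.83 CPM (SD, n = 3 each; log2 fold change -0.21, SE 0.11, edgeR adjusted p = 0.47). Rbbp4, Rbbp7 and Hdac1 also serve other chromatin complexes.

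**Figure D3:**
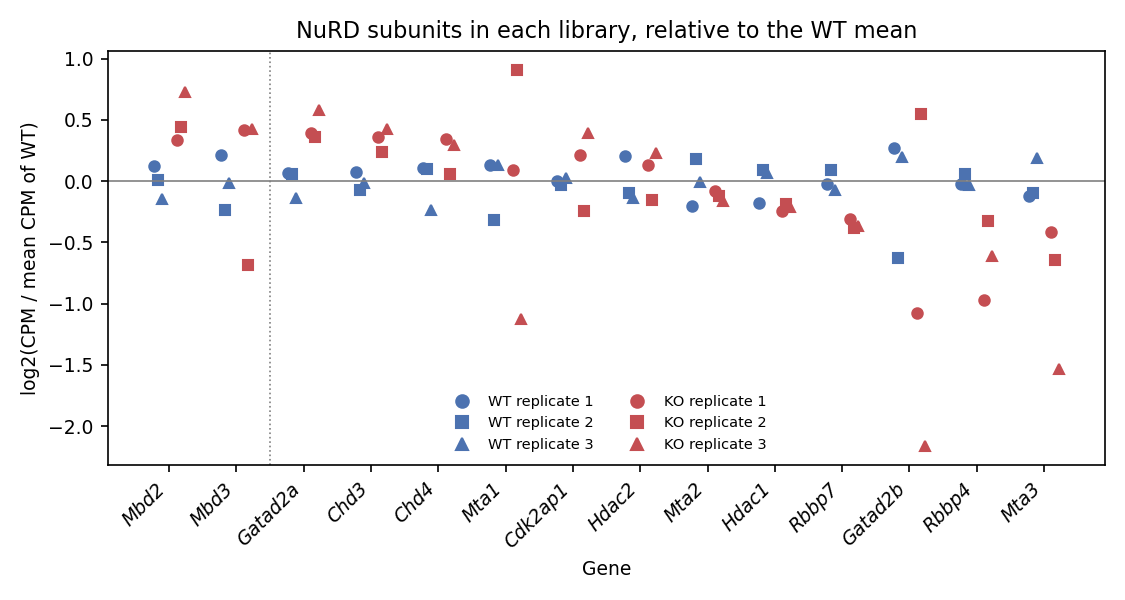
Each NuRD gene in each library as log2 of its CPM over the mean CPM of the libraries labelled WT; blue is WT, red is KO, symbols mark the replicate, and the dotted line separates Mbd2 and Mbd3 from the other subunits, which are ordered by fold change. Mbd2, Gatad2a, Chd3 and Chd4 lie above 0 in all libraries labelled KO. Hdac1, Mta2, Rbbp7, Rbbp4 and Mta3 lie below 0 in all of them, and Mbd3 and the rest on both sides. For Chd4 and Mta2 the labels overlap.

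Gatad2a was also the gene whose profile lay nearest to that of Mbd2. Over the 6 libraries, the root-mean-square difference between their log2 CPM profiles, each centred on its own mean, was 0.07, against a median of 0.34 over the 68 other genes of the family and lists. Mbd2 was at 0.236 to 0.272 times the CPM of Gatad2a in the 6 libraries, a ratio that also depends on the lengths of the genes. The narrow range of this ratio follows from picking the nearest profile and is not a separate result. The nearest gene was Bap1 for Mbd1 (0.07), Chd3 for Mbd6 (0.08) and Zbtb38 (0.13), Uhrf2 for Zbtb4 (0.10), Baz2a for Zbtb33 (0.11), Trim28 for Mbd3 (0.21), Suv39h2 for Mbd4 (0.26) and Chaf1b for Mbd5 (0.64). A flat profile is near to many others by this measure, which describes these 6 libraries.

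The genes around Mbd4 in base excision and mismatch repair were mostly on the negative side. Of 13 genes 12 were tested, 11 with a negative log2 fold change, beside 7197 of all 14667 genes. The median was -0.23, and 0 were called by edgeR or DESeq2. At an unadjusted p under 0.05 by edgeR there was 1, beside 12.6% of all genes. In 2 genes every library labelled KO lay below those labelled WT, as in 9.42% of all genes. These shares were not tested. Fen1, the flap endonuclease, was at 49.7, 62.4 and 62.2 CPM under the WT label and 48.6, 28.2 and 39.5 CPM under the KO label (log2 fold change -0.58, SE 0.21, edgeR adjusted p = 0.342). Parp1, which senses strand breaks, had a log2 fold change of -0.31 (SE 0.14), and Apex1, the abasic site nuclease, -0.26 (SE 0.21). Polb, the repair polymerase, was nearly level at -0.04 (SE 0.14). Mbd4 itself was on the positive side at 0.12.

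The PR-DUB subunits that Mbd5 and Mbd6 bind had a median of 0.11, with 7 of 9 positive, beside 50.9% of all genes. Of them 0 were called by edgeR or DESeq2 and 0 had an unadjusted p under 0.05. Bap1, the deubiquitinase, was at 108 ± 13.7 and 106 ± 10.0 CPM (SD, n = 3 each). Ogt, the glycosyltransferase of the complex, and Hcfc1, its cofactor, stood at log2 fold changes of 0.11 (SE 0.16) and 0.21 (SE 0.11). Asxl3 had the largest value, 0.59 (SE 0.37), at a level of 1.91 to 5.88 CPM.

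The proteins that work with Mbd1 in heterochromatin and chromatin assembly had a median of -0.08 (0.02 without WT replicate 1). Of 10 tested genes 3 were positive, 0 were called by edgeR or DESeq2 and 0 had an unadjusted p under 0.05. The labels overlapped in all 10, as they did in 11693 of all 14667 tested genes. Cbx3 and Cbx1, which bind methylated histone H3, stood at log2 fold changes of -0.12 (SE 0.12) and -0.05 (SE 0.16). Trim28, a corepressor, was at 82.3 CPM in KO replicate 2 and 147 CPM in KO replicate 3, with a log2 fold change of 0.23 (SE 0.20). Chaf1b, a subunit of chromatin assembly factor 1, had -0.57 (SE 0.33).

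Partners of Zbtb33 had a median of 0.09 (-0.03 without KO replicate 3), with 6 of 9 positive, 0 called by edgeR or DESeq2 and 1 at an unadjusted p under 0.05. That gene, Zfp131, was at 48.2 ± 6.48 and 63.5 ± 6.54 CPM (SD, n = 3 each; log2 fold change 0.40, SE 0.14, edgeR adjusted p = 0.341). Ctnnd1, the p120 catenin that binds Zbtb33, had a log2 fold change of -0.11 (SE 0.11), Hdac3 of the NCoR corepressor -0.09 (SE 0.10) and Ctcf, the insulator protein, 0.35 (SE 0.20).

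Other readers showed no call by edgeR or DESeq2 either. Among the 4 tested genes that encode a related MBD (median 0.18, 3 of 4 positive, 0 at an unadjusted p under 0.05), Baz2b, Baz2a and Setdb2 had log2 fold changes of 0.16 (SE 0.12), 0.19 (SE 0.14) and 0.25 (SE 0.18), and Setdb1 had -0.10 (SE 0.12). Mbd3l1 had 0 counts in all 6 libraries and Mbd3l2 at most 1. Of the 5 readers with an SRA domain or zinc fingers (median 0.16, but -0.17 without KO replicate 3; 1 at an unadjusted p under 0.05), Uhrf1, which reads hemimethylated CpG behind the replication fork, was at 44.6, 54.8 and 40.4 CPM under the WT label and 36.1, 15.2 and 26.1 CPM under the KO label. Its groups did not overlap (log2 fold change -0.85, SE 0.30, edgeR adjusted p = 0.338). Zfp57 and Zfp445, which bind methylated imprinting control regions, stood at log2 fold changes of -0.14 (SE 0.16) and 0.20 (SE 0.12).

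**Figure D4:**
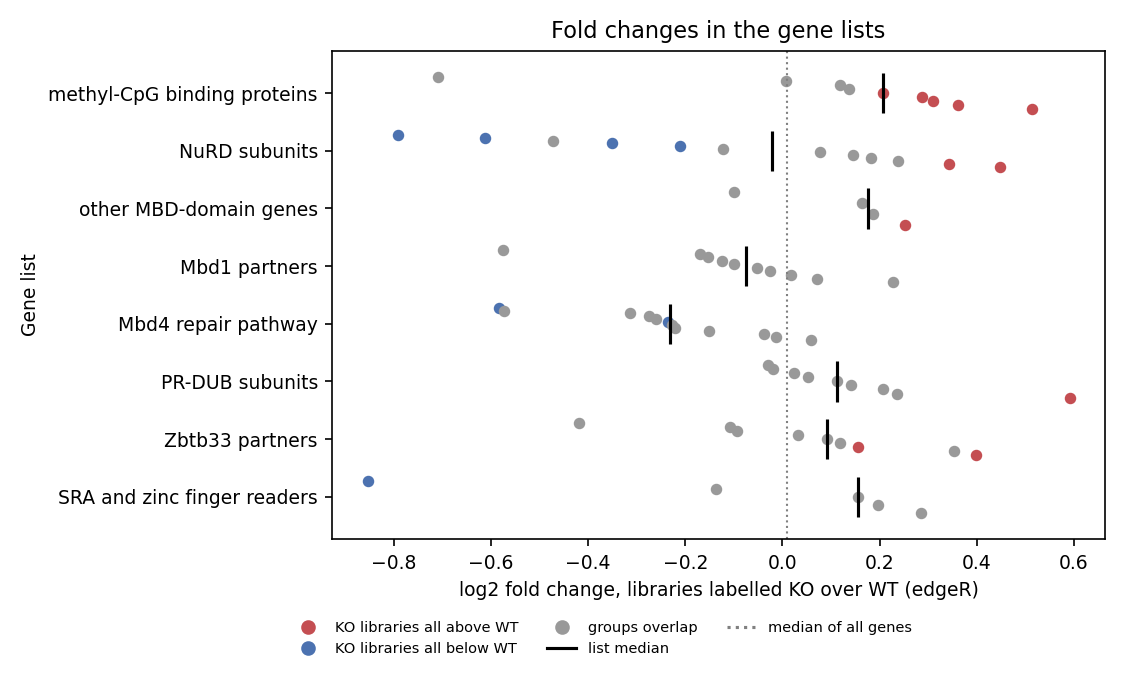
Log2 fold change, KO over WT, of every tested gene in the family and in the 7 partner lists; red points have all libraries labelled KO above those labelled WT, blue points all below, grey points overlap. Black bars are list medians, from 0.21 for the methyl-CpG binding proteins to -0.23 for the Mbd4 repair pathway, and the dotted line is the median of all genes.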

How the data were processed

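RNA from 6 libraries of sorted lung endothelial cells was analysed from 2 deposited tables of 24520 Ensembl genes. The first holds estimated counts deposited by the authors as whole numbers, so that rounding changed none; the second holds TPM values deposited by the authors, whose columns sum to 875864 to 885609. Per the submitters' processing notes, kallisto and mm10 were used; which annotation was used, and how transcripts were summed to genes, is not given there. Per the labels' protocols, cDNA was made with an ultra-low-input kit; no molecular identifiers are named there. Symbols (24298 genes) and coordinates came from GENCODE M21 on the same assembly.

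Samples were grouped by their titles. Genes were tested with edgeR 4.0.16 (limma 3.58.1, R 4.3.3): TMM, filterByExpr, quasi-likelihood F test, two-sided, Benjamini-Hochberg at 0.05 over 14667 genes. CPM is scaled by TMM. A standard error is the log2 fold change over the square root of F, and intervals are 95%. DESeq2 1.42.0 and the other settings of the closing section were alternatives. The 9 genes and the lists were chosen with earlier results of these data known. From each list with no call were named the 2 genes highest in TPM and the 2 with the smallest p. Setdb1, Chd3, Chd4, Mta2, Mta3, Mbd3l1 and Mbd3l2 were named after their values were seen. Of the listed genes, 1 repair gene was not used here. The floor of 3 counts corresponded to 0.0796 to 0.102 CPM and covers counting error only. The test was tried on simulated data.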

Additional observations from a re-analysis of the deposited data

How the results depend on the processing

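Over 17 alternatives (16 for Mbd5), none of the 9 genes passed the threshold, and Mbd2, Mbd6, Zbtb4, Zbtb33 and Zbtb38 stayed positive in every one. Mbd1 turned negative without a filter (-0.0059) and by limma-voom (-0.015). Without each library in turn, log2 fold changes ran from -0.097 to 0.083 for Mbd1, -0.031 to 0.42 for Mbd3, -0.12 to 0.33 for Mbd4 and -1.25 to 0.019 for Mbd5; Mbd4 was negative without WT replicate 3 (-0.12) or KO replicate 1 (-0.12), and Mbd1 without WT replicate 1 (-0.097) or KO replicate 2 (-0.049). The count of all genes called was 5, and became 389 by DESeq2, 9 by limma on log2(TPM + 0.1), 0 with the replicate number as a block (1472 at an unadjusted p under 0.05 by edgeR), and 1 to 4 without each library in turn: 1 without WT replicate 1 or 3, 2 without KO replicate 3 and 3 without KO replicate 1. The partner genes called were 0, and 2 by DESeq2. Between libraries of the same replicate number, deviations from the group mean correlated at 0.28, -0.05 and -0.18 for numbers 1, 2 and 3. WT replicate 2 correlated best with KO replicate 3 (0.36). What libraries of the same number share is not stated in the labels, and these correlations cannot show it. Under the block Mbd2 had an adjusted p of 0.476. The share of positive log2 fold changes over all genes was 50.9%, and 58.4% on log2(TPM + 1). The cause of these changes was not tested. Counts of 201 or more per library stood behind each of the 9 genes except Mbd5.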
